A study of Rattus norvegicus with 96 samples.

Results

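Homer1, 1 of 14217 genes named on the arrays, was read by 5 of the 31042 probe sets that were not controls. They were taken as all probe sets that the platform annotation assigned to Homer1 and to no other gene, each described on its own. The gene itself was selected on measured values of these arrays. Which values is not stated, so its differences between all 12 groups of region, treatment and hours are taken as used. The gene lies on rat chromosome 2, from position 26279012 to 26388279 in the build GRCr8 (gene ID 29546). The annotation ties 1368318_at to the sequence record NM_031707, 1368319_a_at to AB007688, 1370454_at to AB003726, 1370656_a_at to AF093267 and 1370997_at to AF030088, and it names no isoform for any of them. A further probe set, 1399163_a_at, was assigned to both Hax1 and Homer1 and was left out of the members.

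Homer1 encodes a scaffold protein of the postsynaptic density. Its long forms carry a coiled coil by which Homer proteins join each other, and they tie metabotropic glutamate receptors to IP3 receptors and to Shank proteins. Short forms of the same gene lack the coiled coil, are made quickly after synaptic activity and compete with the long forms for these partners. In the brain the short forms are classed with the immediate early genes, while the long forms are expressed constitutively.

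The arrays came from P rats, a line bred to prefer alcohol, and each array read RNA of 1 region, either the central amygdala (labelled CeA) or the shell of the nucleus accumbens (labelled NAc shell). Ethanol rats had limited access to ethanol and water rats did not, and brains were sampled at 1, 6 or 24 h from the end of drinking. In the order of these times, ethanol rats gave 11, 10 and 10 arrays of the central amygdala and water rats 6, 5 and 6. For the accumbens shell, ethanol rats gave 10, 10 and 11 arrays and water rats 7, 5 and 5. The labels give neither the hour of day of sampling nor the age of the rats, and they do not say whether arrays of both regions shared rats, so hours since the last episode and hour of day cannot be told apart here. All values are log2 expression made by RMA, in which a step of 1 is a 2-fold change. Because of the selection, differences of Homer1 between groups are given as descriptions, with a standard error from limma and no p value.

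Among the arrays, 3 from the central amygdala and 5 from the accumbens shell had a low median correlation with the other arrays of their region. The central amygdala title numbers also fell into 4 runs that restart the order of times, and after subtraction of group means, ethanol and water arrays from the same run correlated at a mean r of 0.21, against -0.08 for arrays of different runs. Lower quartiles of the arrays were 5.75 to 5.88 in the central amygdala and 6.01 to 6.16 in the accumbens shell and did not overlap, so levels of the regions are set side by side with no test. Central amygdala neuron markers lay above the detection limit used for testing in 7 of 7 cases in the central amygdala, and markers of medium spiny neurons did so in 8 of 8 cases in the accumbens shell and also in 8 of 8 in the central amygdala. Central amygdala neuron markers also lay above it in 6 of 7 cases in the accumbens shell. Of the markers of cortical and basolateral glutamatergic neurons, 0 of 4 lay above it in the central amygdala and 1 of 4 in the accumbens shell. Markers of thalamic or hypothalamic neurons did so in 3 of 5 cases in each region. In bulk tissue, fewer cells of a type and less RNA per cell cannot be told apart.

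The 250 bases upstream of the annotated start of Homer1 are shown because short and long forms can share this promoter and the probe sets varied together, as described further on. The sequence is from RefSeq (GRCr8, chr2:26278762-26279011, plus strand), with the letters ACGT, the core of both palindromes searched, in capitals.
Homer1 upstream region: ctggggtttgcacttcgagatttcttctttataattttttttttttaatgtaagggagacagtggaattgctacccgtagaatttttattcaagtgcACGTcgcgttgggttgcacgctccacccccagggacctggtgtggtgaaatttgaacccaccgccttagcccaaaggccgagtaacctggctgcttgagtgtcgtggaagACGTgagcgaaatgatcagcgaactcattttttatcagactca
The core occurred 2 times in this window, and 27.7% of 33469 rat promoters of the same length held it at least once. The full cyclic AMP response element TGACGTCA was not found (1.59% of promoters held it), nor was its shorter form TGACG or CGTCA (18.2%), nor the E-box CACGTG (5.59%). Both strands were searched, and the shorter form lies within the full element. These letters are a description of the window and carry no information on the binding of any factor.

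The probe set 1370997_at varied most with the hours. Ethanol rats averaged, in the accumbens shell, 9.72 ± 1.04 at 1 h, 8.58 ± 0.64 at 6 h and 9.90 ± 0.60 at 24 h (SD, n = 10, 10 and 11), and water rats 9.85 ± 0.60, 8.09 ± 0.59 and 9.73 ± 0.97 (n = 7, 5 and 5). The lowest, median and highest ethanol arrays were at 8.14, 9.93 and 11.53 at 1 h, at 7.52, 8.64 and 9.66 at 6 h, and at 8.66, 10.06 and 10.73 at 24 h. The 7 water arrays at 1 h had 8.94, 9.88 and 10.49 as lowest, median and highest, the 5 at 6 h read 7.34, 7.62, 8.34, 8.42 and 8.74, and the 5 at 24 h read 8.16, 9.42, 10.22, 10.36 and 10.49. Both treatments thus had their low values at 6 h, with similar levels on either side. All 5 water arrays at 6 h lay below all 7 at 1 h, which was also so for 36 of 18625 probe sets tested (0.193%). The 6 h groups overlapped the 1 h group in ethanol rats and the 24 h group in both treatments, although all 10 ethanol arrays at 6 h lay below the median of either other time.

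Averaged over treatments, 1370997_at in the accumbens shell was lower at 6 h than at 1 h (difference -1.45 ± 0.27, SE), which is 2.73-fold, and higher at 24 h than at 6 h by 1.48 ± 0.28, or 2.79-fold. The difference of 24 h from 1 h was 0.03 ± 0.26. Within ethanol rats the 6 h minus 1 h difference was -1.14 ± 0.32, and within water rats -1.76 ± 0.42. The difference between those, 0.62 ± 0.53, was little more than its own error.

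In the central amygdala, 1370997_at of ethanol rats averaged 7.85 ± 0.89 at 1 h, 7.33 ± 0.71 at 6 h and 8.28 ± 0.47 at 24 h (SD, n = 11, 10 and 10), and that of water rats 8.0 ± 0.93, 6.89 ± 1.05 and 8.29 ± 1.5 (n = 6, 5 and 6). The lowest, median and highest ethanol arrays were at 6.32, 8.09 and 8.89 at 1 h, at 6.34, 7.29 and 8.78 at 6 h, and at 7.53, 8.42 and 8.93 at 24 h. Water arrays had 6.57, 8.03 and 9.16 as lowest, median and highest at 1 h, the 5 at 6 h read 5.99, 6.16, 6.30, 7.63 and 8.36, and those at 24 h had 6.76, 7.82 and 10.47. The 6 h means were thus the lowest, as in the accumbens shell, but all of these groups overlapped, and the water arrays spread widely. Of the 10 ethanol arrays at 6 h, 9 lay below the median at 1 h, as did 4 of the 5 water arrays.

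The 6 h minus 1 h difference of 1370997_at in the central amygdala was -0.82 ± 0.32 over both treatments, -0.53 ± 0.38 in ethanol rats and -1.11 ± 0.53 in water rats. At 24 h it was higher than at 6 h by 1.18 ± 0.33, or 2.27-fold. Within the 4 runs the 6 h minus 1 h difference read -0.40, -0.85, -0.59 and -0.18, and the 24 h minus 6 h difference 0.10, 1.17, 1.17 and 0.79, with 1 to 7 arrays at a time in a run. All runs thus kept the sign of both differences, and run 4 had 1 array at 24 h.

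**Figure D1:**
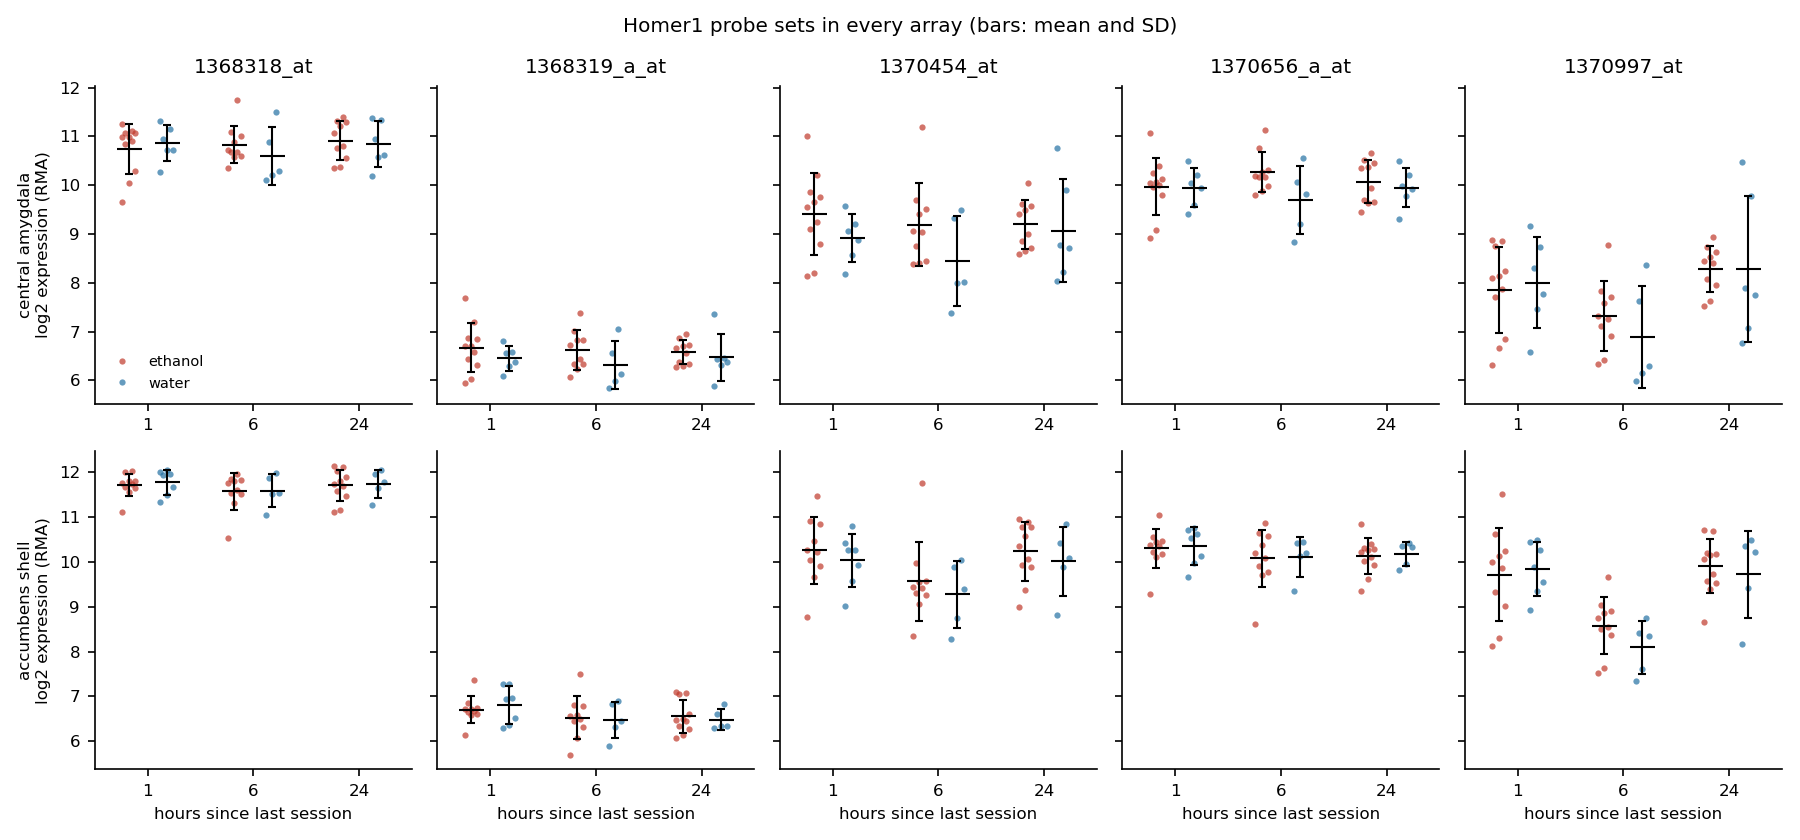
Log2 expression (RMA) of the 5 Homer1 probe sets in every array, by hours since the last session, with central amygdala in the upper row and accumbens shell in the lower row. Points are arrays, ethanol in red and to the left of water in blue, and black bars are mean and SD. The low 6 h values of 1370997_at, with means of 8.58 in ethanol and 8.09 in water rats of the accumbens shell, stand below those at 1 and 24 h, while 1368318_at stays level.

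The probe set 1370454_at also had its lowest means at 6 h in the accumbens shell, with smaller differences. Ethanol rats there averaged 10.26 ± 0.74 at 1 h, 9.57 ± 0.88 at 6 h and 10.24 ± 0.65 at 24 h, and water rats 10.04 ± 0.59, 9.28 ± 0.75 and 10.01 ± 0.76 (SD). The ethanol arrays at 6 h had 8.35, 9.43 and 11.78 as lowest, median and highest, and the 5 water arrays at 6 h read 8.28, 8.75, 9.40, 9.90 and 10.05. Of these, 9 of 10 ethanol and 5 of 5 water arrays lay below the median of 1 h, and the groups overlapped. The 6 h minus 1 h difference was -0.73 ± 0.26 and the 24 h minus 6 h difference 0.70 ± 0.27, each about equal in ethanol rats (-0.69 ± 0.31 and 0.66 ± 0.31) and water rats (-0.77 ± 0.41 and 0.74 ± 0.44).

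Central amygdala arrays of 1370454_at averaged 9.41 ± 0.85, 9.19 ± 0.85 and 9.20 ± 0.49 at 1, 6 and 24 h in ethanol rats, and 8.91 ± 0.49, 8.44 ± 0.92 and 9.07 ± 1.05 in water rats. Its lowest, median and highest ethanol arrays were at 8.15, 9.56 and 11.003 at 1 h, at 8.38, 9.06 and 11.19 at 6 h, and at 8.59, 9.21 and 10.04 at 24 h. The water arrays had 8.18, 8.98 and 9.57 as lowest, median and highest at 1 h, the 5 at 6 h read 7.38, 8.0, 8.02, 9.33 and 9.49, and those at 24 h had 8.04, 8.74 and 10.76. The groups overlapped at each time. Here the differences between times, -0.34 ± 0.28 for 6 h minus 1 h and 0.32 ± 0.28 for 24 h minus 6 h, were close to their errors. Within runs 1 to 4 the 6 h minus 1 h difference read 0.24, -0.27, -0.47 and 0.26, so that its sign was not the same in each.

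Averaged over treatments, the other probe sets varied little with the hours. The group means of 1368318_at lay between 10.60 and 10.91 in the central amygdala and between 11.58 and 11.79 in the accumbens shell, and its 6 h minus 1 h difference was -0.09 ± 0.16 in the central amygdala and -0.17 ± 0.12 in the accumbens shell. For 1370656_a_at the means lay between 9.70 and 10.27 in the central amygdala and between 10.08 and 10.35 in the accumbens shell. Its 6 h minus 1 h difference was 0.02 ± 0.18 and -0.23 ± 0.17 in these regions. In the central amygdala this was 0.29 ± 0.21 in ethanol rats and -0.25 ± 0.29 in water rats. The identifier ending in _a_at marks a probe set that the array's designers took to match several transcripts of a gene. The other such probe set, 1368319_a_at, averaged 6.32 to 6.67 in the central amygdala and 6.48 to 6.80 in the accumbens shell, below the limits of 6.96 and 7.09 that a probe set had to pass to be tested. Its 6 h minus 1 h difference was -0.09 ± 0.15 in the central amygdala and -0.25 ± 0.13 in the accumbens shell.

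When the 6 groups of a region were put in order of their mean, neighbours in that order mostly lay closer than their pooled SD. The exception among the 5 probe sets was 1370997_at in the accumbens shell, where ethanol rats at 6 h, next after ethanol rats at 1 h, lay 1.14 lower against a pooled SD of 0.86. For this probe set both 6 h groups were the lowest of the 6 in either region, with water rats below ethanol rats.

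**Figure D2:**
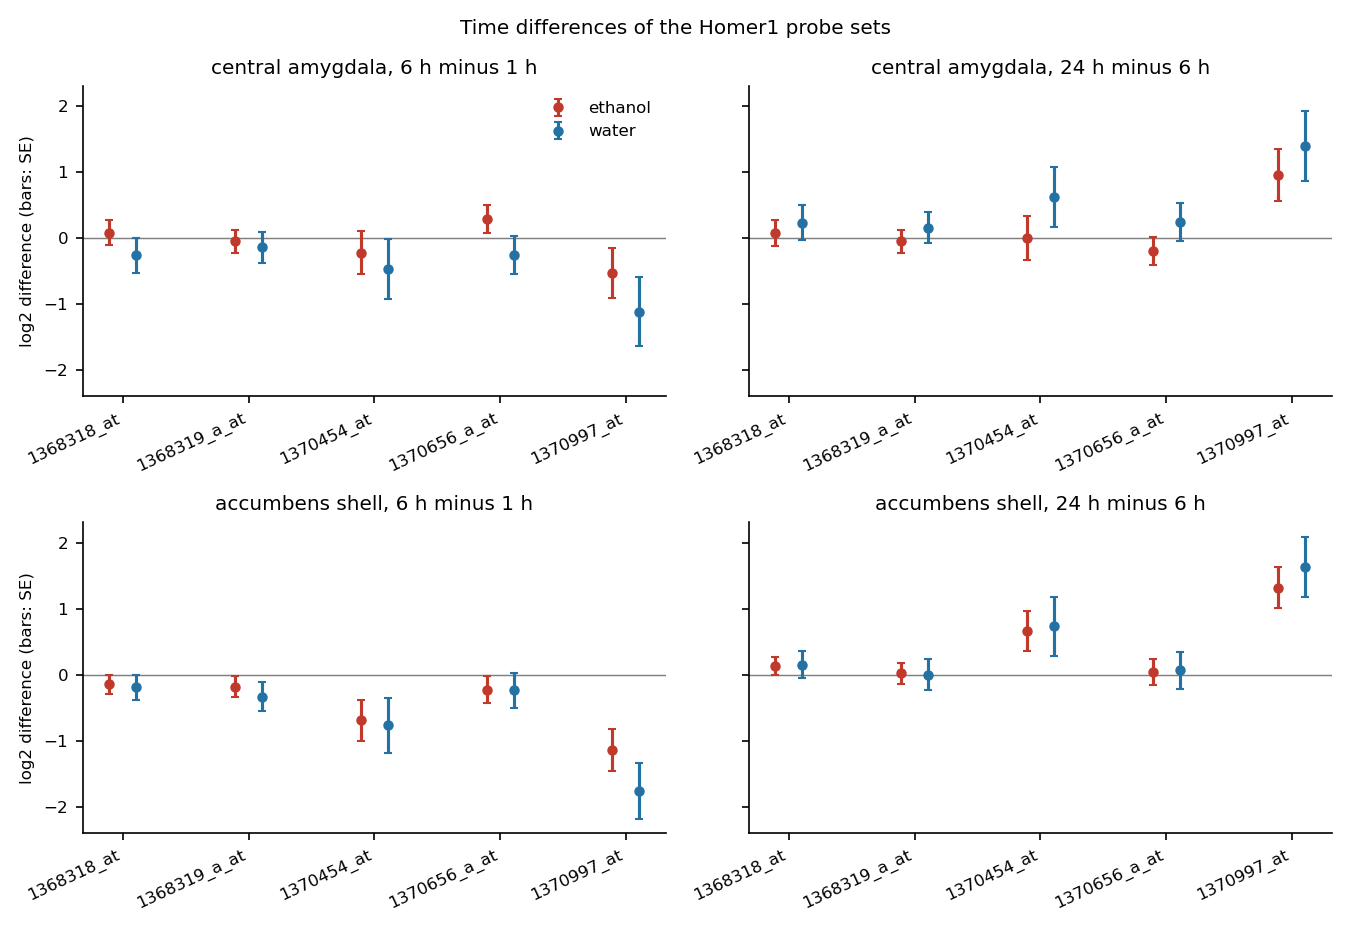
Log2 differences of the Homer1 probe sets between times (left column 6 h minus 1 h, right column 24 h minus 6 h) in the central amygdala (upper row) and accumbens shell (lower row), with ethanol in red left of water in blue and bars for the SE. The 1370997_at points of the accumbens shell, at -1.14 in ethanol and -1.76 in water rats for 6 h minus 1 h, lie farthest from 0, and those of 1368318_at lie near it.

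In the test across all 18625 probe sets of a region (limma, Benjamini-Hochberg adjusted p under 0.05), 4 of the 5 Homer1 probe sets passed the filter on low values in both regions. Of these 4 in the accumbens shell, 1, 1370997_at, was called lower at 6 h than at 1 h, where 0.0268% of all probe sets tested were called in either direction, and it was called higher at 24 h than at 6 h, where 0.0859% were called. In the central amygdala 0 of 4 were called for these differences, against 0.0537% and 0.247% of all. As the gene may have been proposed for these very differences, nothing is read from the counts. For 6 h against 1 h in the accumbens shell, the count fell to 0 when any of 3 water arrays at 1 h (replicates 18, 21 and 22) or 2 at 6 h (25 and 27) was left out. Leaving out 1 water array at 6 h in the central amygdala (replicate 13) raised the count for 24 h against 6 h there to 1.

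For 1370997_at the differences between ethanol and water rats were smaller than those between times. No Homer1 probe set was called for ethanol against water, either over the 3 times or at 1 of them, and 0% of all probe sets tested were called in any of these comparisons (1519 in the central amygdala and 2061 in the accumbens shell had an unadjusted limma p under 0.05 over the 3 times). Over the mean of the times, 1370997_at in ethanol rats was above that in water rats by 0.10 ± 0.26 in the central amygdala and 0.18 ± 0.22 in the accumbens shell. At 6 h, where both groups were low, these differences were 0.44 ± 0.48 and 0.48 ± 0.40. Each was close to its own error.

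For 1370454_at the ethanol minus water difference over the times was 0.46 ± 0.23 in the central amygdala and 0.25 ± 0.21 in the accumbens shell. The central amygdala difference was 0.50 ± 0.38 at 1 h, 0.75 ± 0.41 at 6 h and 0.13 ± 0.39 at 24 h. Array quality weights moved the 24 h value to 0.60, and covariates of oligodendrocyte and medium spiny neuron marker means moved it to -0.02. A block by run moved the 1 h value to 0.76 and the 6 h value to 0.53. Without low-correlation arrays the 6 h value was also 0.53. All 10 ethanol arrays at 6 h lay above the median of the 5 water arrays, and the groups overlapped. Within runs 1 to 4 the ethanol minus water difference over all times together, with hours as a term, was 0.12, 1.04, 0.12 and 1.20. Run 4 held 2 water arrays, both at 6 h.

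Averaged over treatments, 1370656_a_at and 1368318_at were among the probe sets level over time. In the central amygdala at 6 h, 1370656_a_at stood 0.57 ± 0.26 higher in ethanol than in water rats, and 0.24 ± 0.14 over the 3 times. The 6 h value was 0.42 with a block by run and 0.40 without low-correlation arrays. For 1368318_at the difference was 0.23 ± 0.24 at 6 h and 0.07 ± 0.13 over the times. Over the times in the accumbens shell, the difference of 1370656_a_at was -0.04 ± 0.14 and that of 1368318_at -0.04 ± 0.10. Cell type markers of the central amygdala were also read for these 6 h groups, and 0 of any list were called (limma). An unadjusted limma p under 0.05 was found for 1 of 5 oligodendrocyte and 2 of 7 central amygdala neuron markers. The same held for 0 of 8 medium spiny neuron, 2 of 5 microglia and 1 of 5 vessel markers. In ethanol minus water, 7 of 8 medium spiny neuron markers were above 0. Below 0 were 5 of 5 microglia, 5 of 5 vessel, 3 of 3 thalamic or hypothalamic and 3 of 5 astrocyte markers. Oligodendrocyte markers (5 genes) averaged 12.71 ± 0.49 in ethanol and 13.14 ± 0.57 in water rats (SD, n = 10 and 5), and central amygdala neuron markers (7 genes) averaged 11.26 ± 0.47 in ethanol and 10.80 ± 0.52 in water rats. Summed linear intensities ranged from 38481 to 80909 in ethanol and from 35864 to 84086 in water rats for oligodendrocytes, and from 34238 to 54508 and from 29478 to 46079 for the neurons. An alternative added after the data were seen used the means of oligodendrocyte and medium spiny neuron markers as covariates. The list of central amygdala neuron markers was not a covariate. With these covariates the 6 h difference in the central amygdala was 0.29 for 1370454_at and -0.06 for 1370997_at. For 1370656_a_at it was 0.27 and for 1368318_at -0.07.

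All probe sets of an array share its RNA, and the difference between 2 Homer1 probe sets within an array removes what shifts both equally. As 1370997_at varied more within groups than 1368318_at, part of what they share remains in it. The difference of 1370997_at from 1368318_at is a change relative to the other probe set and no ratio of transcripts, because probe sets differ in affinity. Accumbens shell arrays averaged -2.0 ± 0.91, -3.0 ± 0.40 and -1.81 ± 0.39 at 1, 6 and 24 h in ethanol rats, and -1.94 ± 0.48, -3.50 ± 0.43 and -2.02 ± 0.81 in water rats (SD). The 5 water arrays at 6 h read -4.19, -3.57, -3.44, -3.17 and -3.14, and the 5 at 24 h read -3.11, -2.62, -1.61, -1.58 and -1.16. The water arrays at 6 h overlapped neither other time, while the ethanol arrays at 6 h overlapped both. The share of differences between other probe sets that separate in this way was not computed, so nothing is read from it.

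Over both treatments the 6 h minus 1 h value of this within-array difference was -1.28 ± 0.22 in the accumbens shell and -0.73 ± 0.22 in the central amygdala (SE). It was higher at 24 h than at 6 h by 1.34 ± 0.23 in the accumbens shell and by 1.02 ± 0.22 in the central amygdala. The 6 h minus 1 h difference of 1368318_at itself was only -0.17 in the accumbens shell and -0.09 in the central amygdala. Most of the time difference of 1370997_at thus had to remain after the subtraction, which is no separate result. The part of RNA quality or cell makeup in it was not tested. The error of the within-array difference was smaller in the central amygdala than for 1370997_at alone. In the central amygdala all 10 ethanol arrays at 6 h lay below the median of ethanol arrays at 1 h, and all 5 water arrays below that of water arrays at 1 h. Within the 4 central amygdala runs the 6 h minus 1 h value was -0.60, -0.72, -0.61 and -0.40. The ethanol minus water value was 0.03 ± 0.18 in the central amygdala and 0.21 ± 0.18 in the accumbens shell.

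For 1370454_at minus 1368318_at the 6 h minus 1 h value was -0.56 ± 0.19 in the accumbens shell and -0.26 ± 0.17 in the central amygdala. Here the ethanol minus water value in the central amygdala was 0.39 ± 0.14 over the times, 0.61 ± 0.23 at 1 h, 0.52 ± 0.25 at 6 h and 0.05 ± 0.24 at 24 h. At 1 h in the central amygdala this difference averaged -1.34 ± 0.48 in the 11 ethanol arrays and -1.94 ± 0.30 in the 6 water arrays (SD), and all 11 ethanol arrays lay above the median of the water arrays. Over the times in the accumbens shell the value was 0.29 ± 0.16. Within the central amygdala runs the ethanol minus water value over all times together, with hours as a term, was 0.21, 0.64, 0.24 and 0.87.

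**Figure D3:**
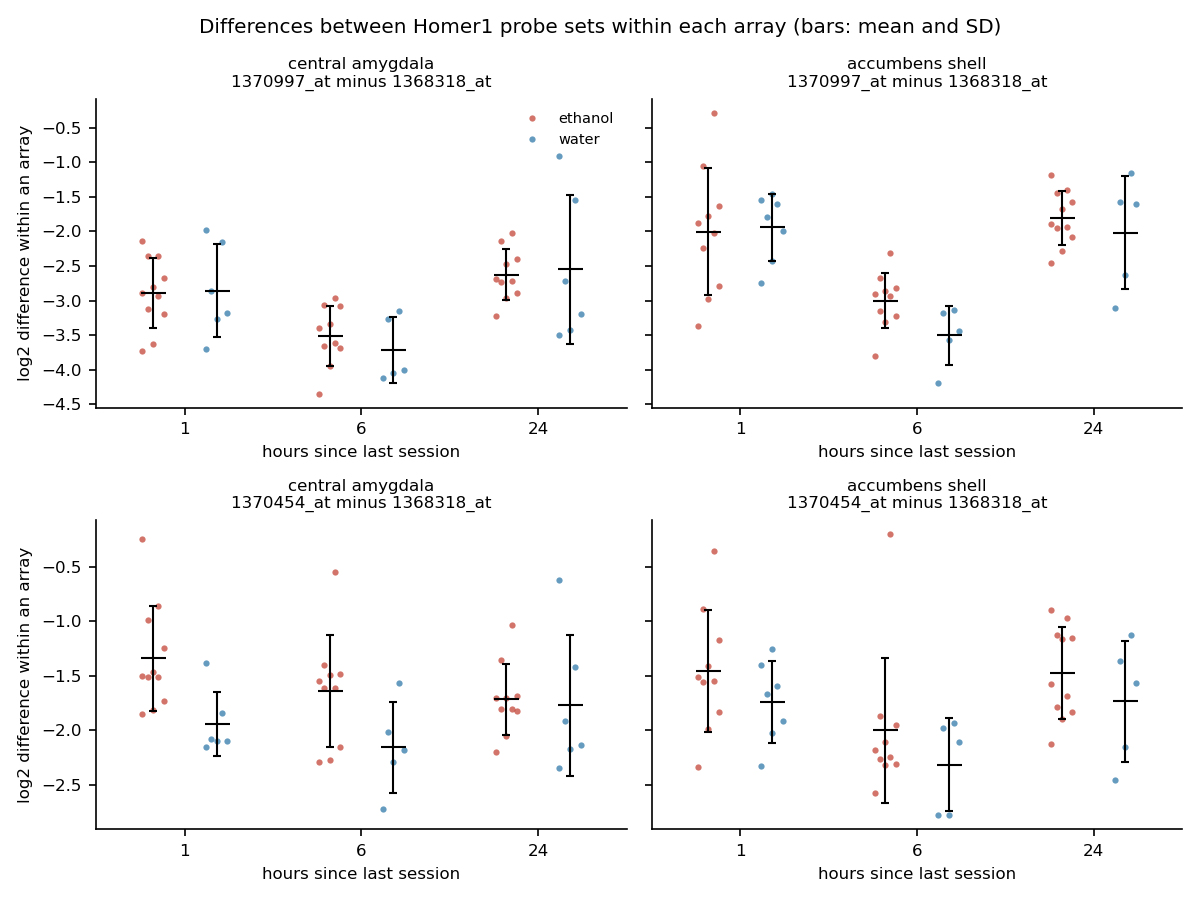
Log2 difference between Homer1 probe sets within each array, 1370997_at minus 1368318_at in the upper row and 1370454_at minus 1368318_at in the lower row, for the central amygdala (left) and accumbens shell (right), by hours since the last session. Ethanol arrays (red) stand left of water arrays (blue), and bars are mean and SD. In the upper row the 6 h arrays sit lowest, with accumbens shell means of -3.0 in ethanol and -3.50 in water rats.

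The probe sets also varied together from array to array within groups. With each group's mean removed, all 10 pairs of Homer1 probe sets were positively correlated over the 48 arrays of a region, with Pearson r of 0.74 to 0.86 in the central amygdala and 0.49 to 0.91 in the accumbens shell and Spearman rho of 0.71 to 0.85 and 0.50 to 0.88. All 10 passed an adjusted p under 0.05 in both regions (two-sided permutation within groups, 100000 resamples, Benjamini-Hochberg over 90 relations planned together, largest adjusted p 0.0005). Without the 2 arrays farthest from the median of the first probe set, r was 0.71 to 0.83 in the central amygdala and 0.41 to 0.87 in the accumbens shell. In the single central amygdala runs all 40 values of r were above 0, between 0.30 and 0.98. The pair of 1368318_at and 1370656_a_at had r of 0.84 in the central amygdala and 0.91 in the accumbens shell, while that of 1368318_at and 1370997_at had 0.83 and 0.64.

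Within groups, Homer1 probe sets were correlated with most of 6 genes that neurons switch on when active. The 6 tested were Arc, a synaptic protein that regulates AMPA receptor uptake, the transcription factor genes Fos, Egr1, Junb and Nr4a1, and Dusp1, a phosphatase of MAP kinases. Of 30 relations between a Homer1 probe set and such a gene in the central amygdala, 25 passed, and the 5 that did not were those with Dusp1 (r of -0.09 to 0.22, largest adjusted p 0.751). Of those in the accumbens shell 29 of 30 passed, all with positive r, and the other, 1368319_a_at with Fos, had r of 0.30 (adjusted permutation p = 0.0686). For 1370997_at and Arc, r was 0.85 (rho 0.86) in the central amygdala and 0.72 (rho 0.68) in the accumbens shell, with the smallest permutation p that 100000 resamples allow, 1e-05, in each, and 0.83 and 0.68 without the 2 farthest arrays. For 1368318_at and Arc, r was 0.81 in the central amygdala and 0.80 in the accumbens shell, so the probe sets that were level over the hours followed these genes within groups as well. In the single central amygdala runs 111 of 120 such values of r were above 0. The share of all probe sets with such a correlation was not computed, so these counts do not show a relation particular to activity genes.

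The difference 1370997_at minus 1368318_at was also set against the 6 genes, as a relation added after the data were seen, with p values adjusted over 82 added relations. All 6 passed in both regions, with r of 0.41 to 0.73 in the central amygdala and 0.37 to 0.46 in the accumbens shell (largest adjusted permutation p 0.0092). Pearson r was highest with Nr4a1 in the central amygdala (0.73, rho 0.73) and with Arc in the accumbens shell (0.46, rho 0.43), where rho was highest with Junb (0.52). Within central amygdala runs 22 of 24 values of r were above 0. As 1370997_at varied more within groups than 1368318_at, their difference keeps part of what they share. These relations are thus not shown to be particular to 1370997_at.

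Cell type markers moved with the probe sets from array to array too. For 1368318_at, r with the mean of the medium spiny neuron markers was 0.83 in the central amygdala and 0.88 in the accumbens shell, and r with oligodendrocyte markers was -0.80 and -0.68 in these regions (adjusted permutation p under the threshold in each). For 1370997_at these were 0.74 and 0.62 for medium spiny neurons and -0.67 and -0.56 for oligodendrocytes. Of the 35 relations between a probe set and a marker list, added after the data were seen, 32 passed in the central amygdala and 25 in the accumbens shell. The part of cell makeup in the relations with activity genes was not tested. The difference between 3 prime and 5 prime Gapdh control probe sets, a measure of RNA integrity, passed with 0 of 5 Homer1 probe sets in the central amygdala and 2 of 5 in the accumbens shell, 1368319_a_at (r -0.57) and 1370656_a_at (r -0.35).

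**Figure D4:**
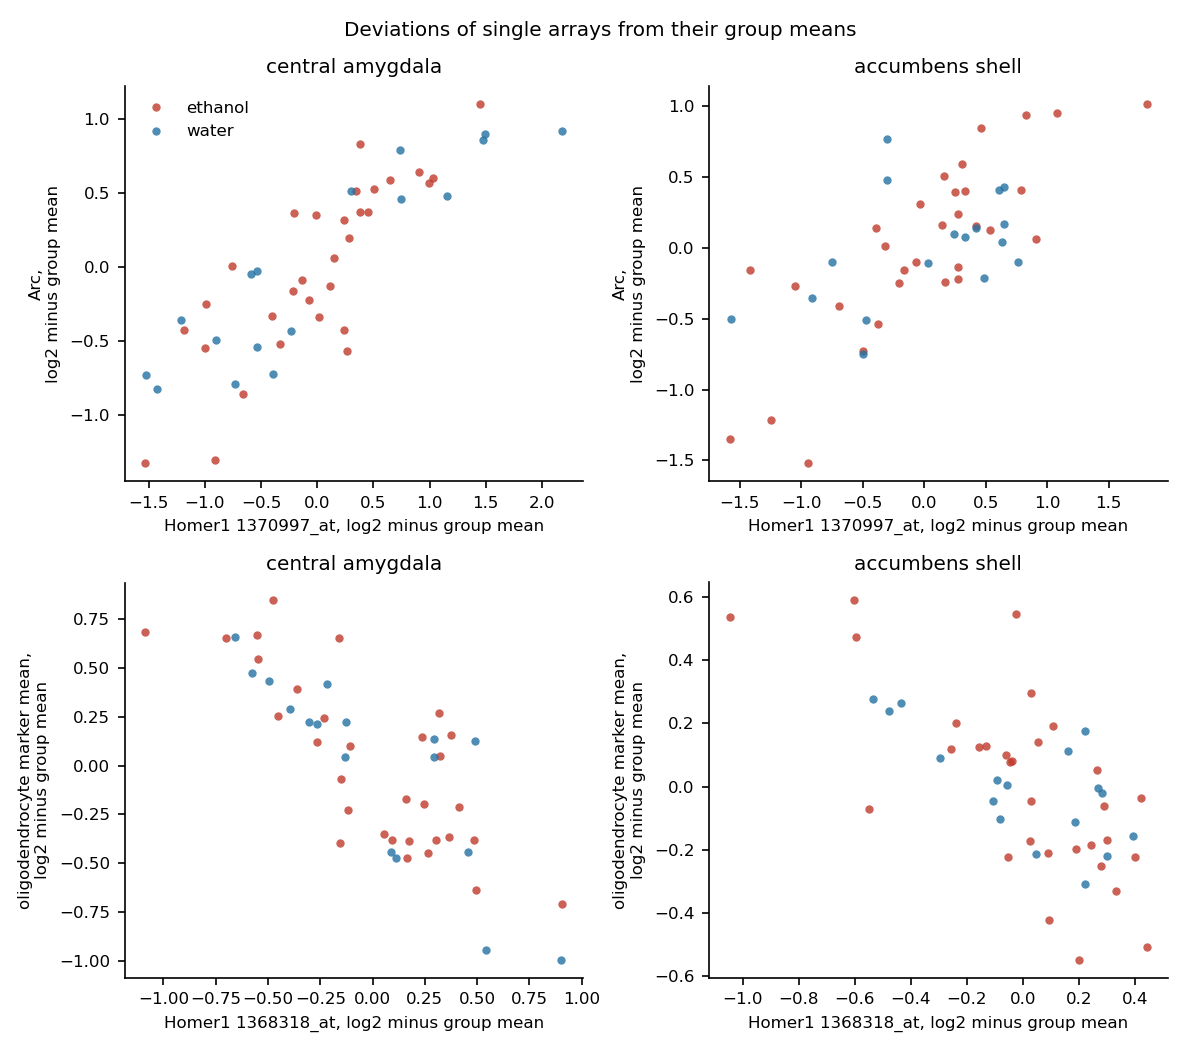
Each point is an array's log2 value minus the mean of its group, for ethanol (red) and water (blue) arrays of the central amygdala (left) and accumbens shell (right). The upper row sets Arc against Homer1 1370997_at (r 0.85 in the central amygdala and 0.72 in the accumbens shell), and the lower row sets the mean of oligodendrocyte markers against Homer1 1368318_at (r -0.80 and -0.68), so the points rise in the upper row and fall in the lower row.

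Marker lists were also read beside the time differences of 1370997_at. In the accumbens shell at 6 h against 1 h, 8 of 8 medium spiny neuron markers were below 0 with a median of -0.11, and 4 of 5 oligodendrocyte markers with a median of -0.07. Of the central amygdala values, 7 of 8 medium spiny neuron markers were below 0 (median -0.12) and 4 of 5 oligodendrocyte markers above 0 (median 0.07). None of these was called by limma, and 0 of them had an unadjusted p under 0.05. Of the markers of vessels and meninges, 5 of 5 were above 0 in the central amygdala (median 0.08) and 1 was called, Flt1, a receptor of endothelial cells (0.33 ± 0.07, limma adjusted p = 0.0366). In the accumbens shell 1 of 3 was above 0 and none was called, with 2 at an unadjusted p under 0.05, Cldn5 (-0.28 ± 0.07) and Flt1 (0.15 ± 0.06). Central amygdala neurons, astrocytes and microglia had 1 such marker each in the central amygdala, Sst (-0.49 ± 0.23), Aldh1l1 (0.17 ± 0.07) and Cx3cr1 (0.14 ± 0.06), and 0 in the accumbens shell. The part of these markers in the time differences was not tested. Means of the oligodendrocyte and medium spiny neuron markers were also used as covariates, and the other lists were not. With these covariates the 6 h minus 1 h difference of 1370997_at was -1.39 in the accumbens shell and -0.68 in the central amygdala.

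The genes whose log2 pattern over the arrays was most like each probe set were found by the mean of the regional r over 48 arrays each, among 17572 probe sets that passed the filter in both regions. For 1370997_at these were Nr4a3 (0.82), Egr4 (0.77), Egr2 (0.76), Nr4a1 (0.75), Mest (0.74) and Rdh10 (0.74), the first 4 of which encode transcription factors induced by activity. For 1370454_at they were Nr4a3 (0.86), Egr2 (0.79), Vipr1 (0.78), Stum (0.78), Tesc (0.78) and Inka2 (0.77). For 1368318_at they began with Itpr1 (0.94), an IP3 receptor, and Syne1 (0.93), followed by Nedd4l, Ano3, Kcnab1 and Cnksr2 (0.90 to 0.91). For 1370656_a_at they began with Fosb and Syne1 (0.85 each), followed by Tnks2, Ankrd45, Itpka and Itpr1 (0.83 to 0.85). These are descriptions over arrays that share cell makeup and quality, as given above, and the r values hold the differences between groups. With group means removed, 3 of the 6 genes were the same for 1370997_at (Nr4a3, Egr4 and Egr2, joined by Arc, Plk2 and Lmo7), 3 for 1370454_at, 4 for 1370656_a_at and 6 for 1368318_at.

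The other Homer genes were low or level. Homer2 (1368872_a_at) averaged 5.97 to 6.29 in the central amygdala and 5.25 to 5.41 in the accumbens shell, below the limit for testing. Of Homer3, 1385573_at averaged 7.52 to 7.88 in the central amygdala and 7.37 to 7.48 in the accumbens shell, and 1370212_at 4.66 to 5.37 over both regions. For 1385573_at in the central amygdala the ethanol minus water difference was 0.20 ± 0.16 at 1 h, -0.28 ± 0.18 at 6 h and -0.01 ± 0.17 at 24 h, and the 24 h minus 6 h difference was -0.21 ± 0.12, and none of these passed (limma, unadjusted p of 0.0886 to 0.935).

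Binding partners of Homer proteins were taken as a list of 28 genes, among them the glutamate receptor Grm5, the IP3 and ryanodine receptors, Shank and Dlgap scaffolds, Trpc channels and Gq signalling genes. Of these 26 were on the array, and 20 were tested in the central amygdala and 21 in the accumbens shell. None passed in any of 7 comparisons in either region (limma, adjusted p under 0.05). The members with an unadjusted p under 0.05 were, in the central amygdala, Trpc4 (0.49 ± 0.24) and the actin-binding Dbn1 (0.39 ± 0.19) for ethanol against water at 6 h, and Trpc1 (0.12 ± 0.05) for 24 h against 1 h. Those in the accumbens shell were Trpc1 (-0.12 ± 0.05) and Grm5 (0.25 ± 0.12) for ethanol against water over the times, Dbn1 (-0.16 ± 0.08) and Trpc1 (-0.18 ± 0.09) for it at 6 h, and Trpc1 (0.14 ± 0.06) for 24 h against 6 h. For ethanol minus water at 6 h, 18 of 20 members were above 0 in the central amygdala (median 0.16, against -0.02 over all probe sets tested) and 9 of 21 in the accumbens shell (median -0.03, against 0.01). For 6 h minus 1 h, 14 of 20 members were below 0 in the central amygdala (median -0.07, against 0.01 over all probe sets tested) and 12 of 21 in the accumbens shell (median -0.02, against -0.02). For 24 h minus 6 h, 16 of 20 were above 0 in the central amygdala (median 0.10, against 0.00 over all) and 13 of 21 in the accumbens shell (median 0.03, against 0.01).

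Activity-regulated genes other than Homer1 formed a list of 30, of which 27 were on the array and 22 were tested in each region. At 6 h against 1 h in the accumbens shell 21 of 22 were below 0, with a median of -0.18 against -0.02 over all, and 1 passed, Sgk1, a kinase gene also induced by glucocorticoids (-0.58 ± 0.11, limma adjusted p = 0.0202). Nr4a3 read -0.83 ± 0.23 (adjusted p = 0.280). At 24 h against 6 h there, 17 of 22 were above 0 (median 0.13, against 0.01 over all) and 2 passed, Sgk1 (0.78 ± 0.11, limma adjusted p = 0.000159) and Nr4a3 (1.10 ± 0.24, limma adjusted p = 0.0389). The call of Nr4a3 was lost in 18 of 48 fits that left out 1 array, each an array at 6 or 24 h, with a difference of at least 1.00 in each. That of Sgk1 for 6 h against 1 h was lost in 6 of 48, those without water replicates 18, 21 and 22 at 1 h or 25, 26 and 27 at 6 h. Nr4a3 and Sgk1 thus also had low values at 6 h in the accumbens shell.

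In the central amygdala 17 of 22 activity-regulated genes were below 0 at 6 h against 1 h (median -0.27, against 0.01 over all) and 0 passed (limma, 7 at an unadjusted p under 0.05), with Sgk1 at -0.60 ± 0.16, Dusp1 at -0.34 ± 0.11 and Arc at -0.55 ± 0.23. At 24 h against 6 h 16 of 22 were above 0 (median 0.35, against 0.00 over all) and 2 passed, Sgk1 (0.94 ± 0.16, limma adjusted p = 0.000835) and Per1, a core clock gene that activity also induces (0.50 ± 0.09, limma adjusted p = 0.00334). For ethanol against water 0 members passed in either region, and 0 to 4 had an unadjusted limma p under 0.05 in a comparison. At 6 h in the central amygdala, Fosb read 1.13 ± 0.43, Egr2 1.48 ± 0.65, Fos 0.59 ± 0.27 and Egr1 0.56 ± 0.26 (unadjusted limma p of 0.0125 to 0.0375, adjusted p = 0.571 each). Over the 3 times in the accumbens shell 20 of 22 were above 0 (median 0.07, against 0.01 over all), with Junb at 0.27 ± 0.11 and Nr4a3 at 0.38 ± 0.19.

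The probe set shared by Hax1 and Homer1, 1399163_a_at, had group means of 10.11 to 10.26 in the central amygdala and 9.58 to 9.83 in the accumbens shell. These means spanned less than those of 1370997_at did in either region.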

How the data were processed

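Log2 values of 96 Affymetrix rat arrays were used as deposited by the authors, 1 column per array. Per the labels' protocols, amplification of the Trizol and RNeasy purified RNA took 2 cycles from 25 ng, and the values were made by RMA, per the submitters' processing notes. The RMA version and settings are not given in the sources used here. Each column matched 1 labelled array, and the columns all differed from each other. Nothing says whether replicates were separate rats, so p values measure the spread between these arrays.

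Of 31099 probe sets, 57 controls were left out, and of the remaining 31042, 20826 had 1 symbol, 436 several and 9780 were not listed. Homer1 and the lists (1 probe set per gene, that with the highest mean) were chosen with earlier results of these data known. For a region, those whose mean lay above the 40th percentile (18625) were fitted with limma 3.58.1 in R 4.3.3, with 6 group means and a variance trend, and p values were adjusted by Benjamini-Hochberg over all of them. Correlations used Python 3.11.15 and numpy 2.4.6. Named genes were the Homer1 probe sets, Homer2 and Homer3, the 6 genes most like each tested Homer1 probe set, the correlated genes, and list members that passed or had the smallest p values (up to 4). On simulated data with known changes the scripts recovered them. The simulated noise for the limma fits was independent for each probe set and array. Runs and variation shared between probe sets were thus not part of that check. The number of arrays limits the precision.

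Alternatives were quantile normalization again, weighting arrays by quality, and a filter at the 60th percentile or none. The Gapdh 3 prime minus 5 prime difference was also used as covariate, and low-correlation arrays or each array in turn were left out. The title number or the central amygdala run served as a block, and rank correlation was used. Added later were the means of the oligodendrocyte and the medium spiny neuron markers as covariates (marker covariates).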

Additional observations from a re-analysis of the deposited data

Results flagged for a closer look

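In 10 of 80 groups of 4 to 10 arrays 1 array stood far from the others by Dixon's criterion, which chance gives in about 5% of groups. The same arrays were read for several probe sets that vary together. These cases are thus not independent, and nothing is read from their number. For 1368318_at, 1 central amygdala ethanol array at 6 h read 11.74 (the next 11.10), 1 accumbens shell ethanol array at 1 h read 11.12 (the next 11.57) and 1 at 6 h read 10.53 (the next 11.32). For 1370454_at, 1 ethanol array at 6 h was high in each region, at 11.19 in the central amygdala (the next 9.70) and 11.78 in the accumbens shell (the next 9.99). For 1370656_a_at, accumbens shell arrays read 9.29 in ethanol rats at 1 h (the next 10.12), 8.63 in ethanol rats at 6 h (the next 9.72) and 9.36 in water rats at 6 h (the next 10.14). In the accumbens shell Sgk1 read 11.01 in 1 ethanol array at 6 h (the next 11.52) and Per1 read 10.58 in 1 ethanol array at 1 h (the next 10.24). 1370997_at had no such array in any group of this size.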

How the results depend on the processing

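The 6 h minus 1 h difference of 1370997_at lay between -1.33 and -1.55 in the accumbens shell and between -0.65 (run block) and -0.96 (array quality weights) in the central amygdala over the refits of all arrays or without low-correlation arrays, and between -1.35 and -1.54 and between -0.70 and -1.003 in these regions when single arrays were left out. With a replicate block by title number it was -1.43 and -0.81. Same-numbered arrays of a region were 1 ethanol and 1 water array. Their mean r was -0.33 over 3 pairs in the accumbens shell and 0.07 over 17 pairs in the central amygdala. In the central amygdala the lowest r was -0.78 and 8 pairs lay above 0.10, so no pairing was read from the numbers. The ethanol minus water difference of 1370997_at in the central amygdala, 0.10, was 0.44 with array quality weights and -0.11 with marker covariates, and at 24 h it was 0.62 with array quality weights in place of -0.0037. With those covariates 1 Homer1 probe set was called for 24 h against 6 h in the central amygdala in place of 0, as were 4 activity-regulated genes in place of 2, and 2 in place of 0 for 6 h against 1 h. With the Gapdh covariate 0 such genes were called for 6 h against 1 h in the accumbens shell in place of 1. Correlations that passed in central amygdala runs 1 and 4 alone, which hold 8 arrays each, numbered 2 and 2 with activity genes (25 in all arrays), 4 and 0 with marker lists (32) and 0 and 5 between Homer1 probe sets (10), and in run 4 0 with the probe set difference (6). Those subsets have fewer arrays by construction. When single arrays were left out, Homer1 calls ranged from 0 to 1 for 6 h against 1 h in the accumbens shell and for 24 h against 6 h in the central amygdala, and activity-regulated calls from 0 to 1 and from 1 to 2 for 6 h against 1 h and 24 h against 6 h in the accumbens shell. In the accumbens shell at 6 h against 1 h the sign turned for Dlgap1 with array weights (-0.0065) and with the Gapdh covariate for Agap2 (0.0146) and Dlgap4 (-0.0703). The causes of these shifts were not tested.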
